A study of Homo sapiens with 4 samples.

Results

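The laminin chain genes LAMA1, LAMA2, LAMA3, LAMA4, LAMA5, LAMB1, LAMB2, LAMB3 and LAMC1 were followed in U87, an established human glioma cell line. A probe set (a group of oligonucleotide probes read together on the array) belonged to a chain when the platform annotation named that gene and no other. Of 18304 genes with such a probe set, 8 were laminin chains of the 9 sought, read by 18 of the 41920 probe sets. LAMA2 had 4 probe sets, LAMA4 had 5, LAMA1, LAMB1 and LAMC1 had 2 each, and LAMA5, LAMB2 and LAMB3 had 1 each, while LAMA3 was not analysed here. The chains were picked by name with results of this comparison already known, so calls and p-values of the chains are given as a description and support nothing further.

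The tested cells were QK-knockdown U87 transduced with miR-20a (2 arrays). Their controls were QK-knockdown U87 transduced with miR-NT, a scrambled microRNA without a target (2 arrays). QK (QKI) is an RNA-binding protein that acts on splicing and stability of transcripts, and its knockdown was shared by both groups, so no array of cells with intact QKI was analysed here. Each array read 1 RNA sample, and separate cultures are not stated in the labels. The labels name neither the knockdown reagent nor the vector, and they do not say whether the cells were 1 clone.

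Laminins are cross-shaped glycoproteins of the extracellular matrix, each assembled from an alpha, a beta and a gamma chain. They polymerise into the sheet on which basement membranes are built, and the globular end of the alpha chain binds integrins and dystroglycan on the cell surface. In glioma, laminins are best known from vessel walls, where the alpha4 chain is prominent, and as a substrate on which glioma cells migrate.

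The microRNA given to the cells is shown first, because its seed is the stretch by which it selects transcripts. The labels say miR-20a without an arm, and the 5′ arm, the usual guide strand, is printed from RefSeq (GRCh38.p14, chr13:91351072-91351094, plus strand), with the seed, bases 2 to 8, in capitals.
hsa-miR-20a-5p: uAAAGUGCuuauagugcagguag
The same seed is carried by 7 other mature human microRNAs of that RefSeq release, among them hsa-miR-17-5p, hsa-miR-20b-5p and hsa-miR-93-5p. The sequence of miR-NT was not used here, and the transcripts of the laminin genes were not searched for seed matches.

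Starts of the 3 chains that had a probe set differing by at least 0.4 log2 units are shown next, so that the regulatory sequence of a chain that was lower in miR-20a cells can be read beside those of chains that were higher. Each runs from 250 bases before to 50 bases after the gene's start in RefSeq, 5′ to 3′ on the gene's strand, which is the minus strand for all 3. Capitals mark the GC box GGGCGG on either strand. Also searched on both strands were the AP-1 site TGANTCA, the TATA box with the letters TATAAA, and the box named CCAAT after its letters.
LAMA5 (GRCh38.p14, chr20:62367263-62367562): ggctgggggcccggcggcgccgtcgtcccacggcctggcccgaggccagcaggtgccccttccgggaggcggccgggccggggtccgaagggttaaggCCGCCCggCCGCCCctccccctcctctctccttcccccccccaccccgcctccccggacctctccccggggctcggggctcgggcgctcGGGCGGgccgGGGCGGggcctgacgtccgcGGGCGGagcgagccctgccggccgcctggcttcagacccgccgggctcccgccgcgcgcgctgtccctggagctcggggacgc
LAMA4 (GRCh38.p14, chr6:112254518-112254817): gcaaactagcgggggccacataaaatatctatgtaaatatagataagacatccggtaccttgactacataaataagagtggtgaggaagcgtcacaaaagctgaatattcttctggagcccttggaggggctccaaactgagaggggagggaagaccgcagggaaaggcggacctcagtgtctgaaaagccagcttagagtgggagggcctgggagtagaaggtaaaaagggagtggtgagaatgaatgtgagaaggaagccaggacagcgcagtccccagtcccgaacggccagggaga
LAMB1 (GRCh38.p14, chr7:108003112-108003411): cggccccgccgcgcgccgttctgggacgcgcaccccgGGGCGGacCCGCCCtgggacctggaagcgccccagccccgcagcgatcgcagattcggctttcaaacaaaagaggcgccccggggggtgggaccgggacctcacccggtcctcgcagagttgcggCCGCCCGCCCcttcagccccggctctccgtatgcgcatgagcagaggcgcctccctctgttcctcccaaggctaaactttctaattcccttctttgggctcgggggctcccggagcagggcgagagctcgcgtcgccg
The LAMA5 window held 5 GC boxes, the LAMB1 window 4, a pair of which overlap, and the LAMA4 window 0. Of all 35116 windows in the table, 45.0% held at least 1. The LAMA5 and LAMB1 windows were rich in G and C, at 82.7% and 71.0%, whereas that of LAMA4 had 51.3%, against a median of 58.7% over all windows. None of the 3 held TATAAA (11.5% of all windows), CCAAT (34.6%) or TGANTCA (7.7%). Among windows not printed, that of LAMC1, a chain with small differences, held 3 GC boxes at 79.0% G and C. The window of LAMB2, which was higher in miR-20a cells, held 1 at 58.7%. Whether these features go with direction was not tested. A match of letters is no evidence that a factor binds there.

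Before the chains, the arrays. Levels are the authors' normalized log2 probe-set values, without detection calls, so a low level cannot be told from background, and levels of different probe sets cannot be ranked. The median level was 6.97 on each miR-20a array and at most 7.01 on the miR-NT arrays, and arrays correlated at 0.9946 within miR-20a and 0.9961 within miR-NT. Levels were more spread on the miR-20a arrays (SD 1.904 and 1.890) than on the miR-NT arrays (1.845 and 1.850). Several differences below therefore change in size after quantile normalization, which gives all arrays the same spread. The knocked-down gene QKI was at 9.53 and 9.38 in miR-20a cells and at 9.18 and 9.38 in miR-NT cells, with overlapping groups. VIM (vimentin) and CD44, both mesenchymal glioma markers, were high throughout, with VIM at 14.68 and 14.63 in miR-20a cells and 14.70 and 14.66 in miR-NT cells. GFAP, the classical astrocyte filament, was at 6.94 and 7.33 in miR-20a cells and at 6.94 and 7.29 in miR-NT cells, a level that cannot be told from background here. A sign of RNA quality differed between the groups. For the ACTB control, the 3′ probe set exceeded the 5′ one by 0.52 and 0.46 log2 units on the miR-20a arrays, against 0.20 and 0.35 on the miR-NT arrays, and the part of this in the results below was not tested.

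The laminin chains had no common direction. The alpha5 chain was lower in miR-20a cells, the alpha4, beta1 and beta2 chains were higher by most of their probe sets, and the gamma1 chain, the shared partner of all of them, was nearly level. Means over miR-20a arrays were above those over miR-NT arrays for 9 of the 18 probe sets and below them for 9, with a median difference of 0.04 log2 units, against -0.02 over all probe sets. In bulk RNA of this kind, fewer cells that make a transcript and less of it per cell cannot be told apart.

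In the limma fit over all 41920 probe sets, 0 of the 18 passed an adjusted p of 0.05, where 0.136% of all probe sets did (0.119% higher and 0.0167% lower). Without adjustment, a p under 0.05 (limma) was met by 4 that were higher, where 9.46% of all probe sets were, and by 2 that were lower, where 8.40% were. The 2 arrays of miR-20a cells lay above both miR-NT arrays in 7 of the 18 and below both in 3, where 21.7% and 27.2% of all probe sets did so. These shares describe the chains and are read no further, since the choice of the chains knew this comparison. For 1 value on 4 arrays, the smallest p that an exact two-sided permutation test can give is 0.333.

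**Figure D1:**
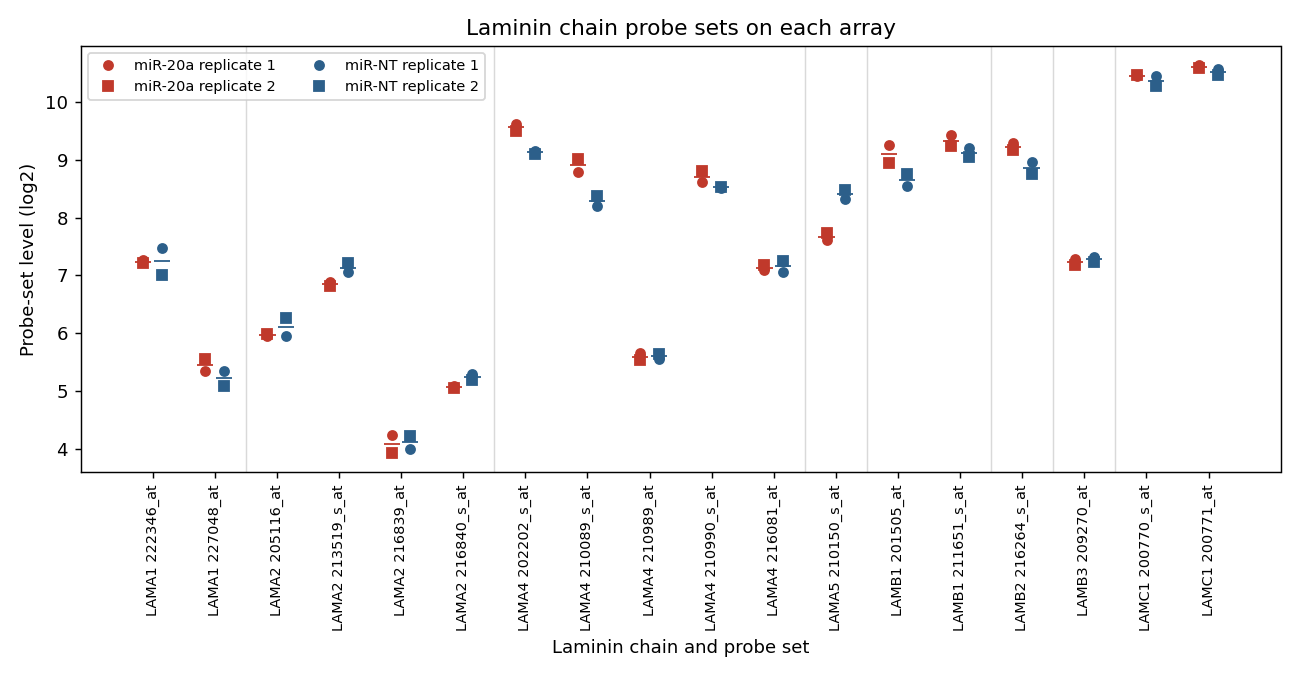
Level (log2) of each laminin chain probe set on each array, with miR-20a arrays in red at the left and miR-NT arrays in blue at the right of each position, circles for replicate 1, squares for replicate 2 and bars for group means (n = 2 each). The LAMA5 arrays of miR-20a cells, at 7.61 and 7.73, lie below both miR-NT arrays, while those of LAMA4 by 210089_s_at, at 8.79 and 9.02, lie above.

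Among the alpha chains, LAMA5 stood furthest from its control level. LAMA5 encodes the alpha5 chain, the most widespread alpha chain of adult basement membranes and a strong ligand of integrin alpha6beta1. Its probe set 210150_s_at read 7.61 and 7.73 in miR-20a cells, against 8.32 and 8.48 in miR-NT cells. As for the other chains, no detection call shows that these levels lay above background. Both miR-20a arrays were low and the groups did not overlap. The difference was -0.73 ± 0.10 log2 units (SE, 95% interval -0.98 to -0.49), a level 1.66-fold lower in miR-20a cells. The means were 7.67 ± 0.09 in miR-20a cells and 8.40 ± 0.11 in miR-NT cells (SD, n = 2 each), and the difference was the 17th lowest of the 41920 differences.

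The call on LAMA5 differed between the fit over probe sets and the fit over genes. Over all probe sets its adjusted p was 0.0865 (limma). When each gene was represented by its probe set of highest mean, the adjusted p over 18304 genes was 0.0449 (limma), and LAMA5 was then the 1 chain of 8 called, where 0.0601% of genes were called lower and 0.366% higher. The size of the difference was the same in both fits.

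A further probe set, 229570_at, is annotated to LAMA5 and to its antisense gene LAMA5-AS1 together, and so was not counted among the chains. It read 8.006 and 7.997 in miR-20a cells, against 7.73 and 7.84 in miR-NT cells, a difference of 0.22 ± 0.09 log2 units (SE). Its sign was opposite to that of 210150_s_at, its groups did not overlap either, and which of the genes it measures was not tested. The lower LAMA5 level therefore rests on 1 probe set.

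LAMA4 encodes the alpha4 chain, typical of vessel walls and of mesenchymal and neural cells. This chain lacks the short arm that several other alpha chains use to polymerise. The 5 LAMA4 probe sets differed among themselves. By 210089_s_at the level was 8.79 and 9.02 in miR-20a cells, against 8.20 and 8.37 in miR-NT cells, a difference of 0.62 ± 0.12 log2 units (SE), or 1.54-fold. By 202202_s_at, the LAMA4 probe set of highest mean, it was 9.63 and 9.51 in miR-20a cells, against 9.16 and 9.10 in miR-NT cells, a difference of 0.44 ± 0.09 (SE). In both probe sets the miR-20a arrays were the high ones and the groups did not overlap.

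The other 3 LAMA4 probe sets differed less. By 210990_s_at LAMA4 stood at 8.61 and 8.81 in miR-20a cells, against 8.51 and 8.53 in miR-NT cells, a difference of 0.19 ± 0.10 (SE) without overlap, and single miR-20a arrays decided its size: it was 0.0892 without miR-20a replicate 2, but 0.28 when replicate 1 was left out. The difference was -0.01 ± 0.10 by 210989_at and -0.02 ± 0.10 by 216081_at (SE), with overlapping groups and a sign that turned positive after quantile normalization or median centring. The 95% interval of 210089_s_at, 0.34 to 0.90, lay above those of 210989_at, -0.24 to 0.22, and 216081_at, -0.27 to 0.23. Levels by 210989_at, between 5.53 and 5.66, and by 216081_at, between 7.06 and 7.25, cannot be told from background. Whether these probe sets detected LAMA4 at all was not tested. The files give no positions of the probe sets on the LAMA4 transcripts.

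LAMA2 encodes the alpha2 chain of muscle and nerve basement membranes, whose loss causes a congenital muscular dystrophy. All 4 of its probe sets had a lower mean in miR-20a cells, at levels that cannot be told from background. By 213519_s_at, the LAMA2 probe set of highest mean, the level was 6.88 and 6.81 in miR-20a cells, against 7.05 and 7.22 in miR-NT cells, a difference of -0.29 ± 0.10 log2 units (SE), and the groups did not overlap. The mean over all LAMA2 probe sets differed by -0.15. The LAMA2 difference was -0.17 ± 0.09 by 216840_s_at, also without overlap, and -0.13 ± 0.12 by 205116_at with overlap (SE). By 216839_at, at levels between 3.93 and 4.24, it was -0.02 ± 0.13 (SE) and turned positive after quantile normalization or median centring. The 4 probe sets thus shared a sign under the deposited scaling only, and LAMA2 by 205116_at rested on miR-NT replicate 2, at 6.26, without which the difference was 0.02.

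LAMA1 encodes the alpha1 chain of the early embryo. Its probe set 222346_at read 7.26 and 7.22 in miR-20a cells, against 7.48 and 7.01 in miR-NT cells, so the miR-NT arrays enclosed the others, and the difference was -0.01 ± 0.15 log2 units (SE). That sign turned under both scaling alternatives. By 227048_at LAMA1 stood at 5.35 and 5.54 in miR-20a cells, against 5.35 and 5.09 in miR-NT cells, a difference of 0.23 ± 0.12 (SE) with groups that met at the same level. It was 0.13 without miR-20a replicate 2, 0.35 without miR-NT replicate 1 and 0.0984 without miR-NT replicate 2.

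Among the beta chains, LAMB1 and LAMB2 were higher in miR-20a cells under every setting tried. Only quantile normalization and median centring could have changed that sign, since their groups did not overlap. LAMB1 encodes beta1, a chain found in most laminins of embryo and brain. By 201505_at LAMB1 was at 9.25 and 8.95 in miR-20a cells, against 8.54 and 8.76 in miR-NT cells, a difference of 0.45 ± 0.13 log2 units (SE). The replicates of this probe set were the most spread within miR-20a of those without overlap, and leaving out single arrays gave 0.30 to 0.60. By 211651_s_at LAMB1 was at 9.43 and 9.24 in miR-20a cells, against 9.20 and 9.05 in miR-NT cells, a difference of 0.21 ± 0.11 (SE), with groups only just apart. This smaller LAMB1 difference was 0.11 without miR-20a replicate 1, 0.14 without miR-NT replicate 2 and 0.12 after quantile normalization, and the mean over both LAMB1 probe sets was 0.33.

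LAMB2 encodes beta2, the chain of the neuromuscular junction and the kidney filter, which can take the place of beta1. Its probe set 216264_s_at read 9.28 and 9.18 in miR-20a cells, against 8.96 and 8.75 in miR-NT cells. The difference was 0.37 ± 0.11 log2 units (SE, 95% interval 0.11 to 0.63), or 1.29-fold, with both miR-20a arrays high. LAMB3 encodes beta3, a chain of the epithelial laminin that anchors skin. It was at 7.29 and 7.19 in miR-20a cells, against 7.32 and 7.24 in miR-NT cells, a difference of -0.04 ± 0.09 (SE) with overlapping groups.

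LAMC1 encodes gamma1, the gamma chain of most laminins, and had small differences by both of its probe sets. By 200771_at LAMC1 was at 10.64 and 10.59 in miR-20a cells, against 10.57 and 10.47 in miR-NT cells. By 200770_s_at it was at 10.45 and 10.48 in miR-20a cells, against 10.45 and 10.28 in miR-NT cells. The differences were 0.09 ± 0.09 and 0.10 ± 0.10 log2 units (SE), and both turned negative, to -0.05 and -0.04, after quantile normalization. Without miR-NT replicate 1 they were 0.14 and 0.18, and without miR-NT replicate 2 they were 0.0432 and 0.0098. Their 95% intervals, -0.13 to 0.31 and -0.14 to 0.33, leave room for a difference of about the size seen in LAMB1 by 211651_s_at.

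**Figure D2:**
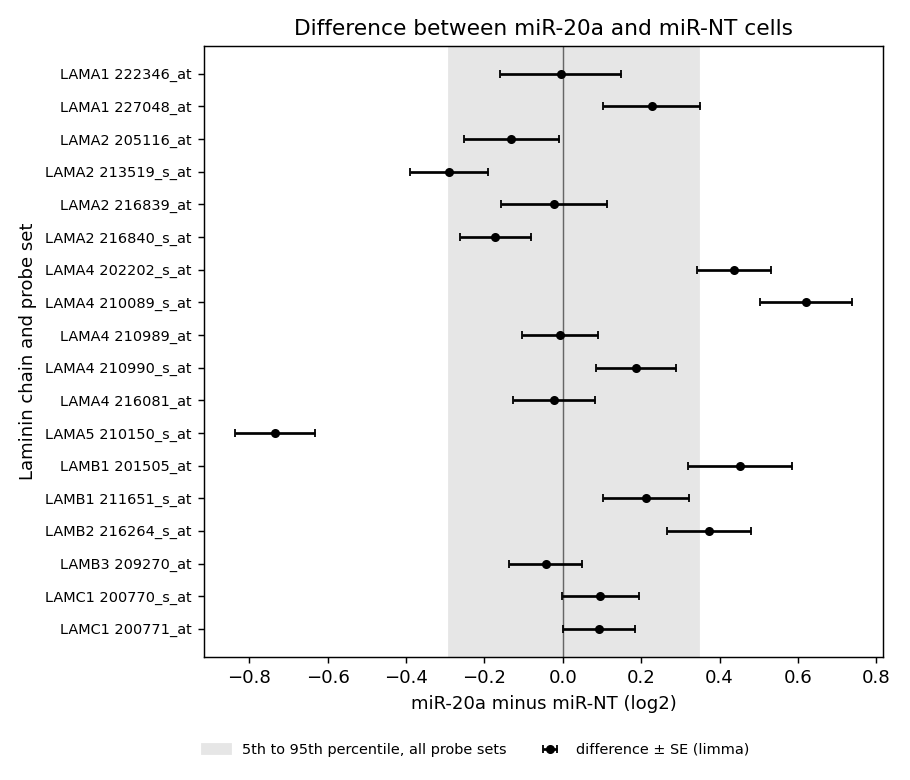
Difference between miR-20a and miR-NT cells (log2, positive where miR-20a is higher) for each laminin chain probe set, with the SE of the limma fit as bars and the range between the 5th and 95th percentile of all 41920 differences, -0.29 to 0.35, shaded. LAMA5 at -0.73 lies left of the shaded range, and LAMA4 by 202202_s_at and 210089_s_at, LAMB1 by 201505_at and LAMB2 lie right of it.

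Read by the trimers in which the chains are known to assemble, alpha4 with beta1 and gamma1, the laminin of brain vessels, had probe sets of highest mean at 0.44, 0.21 and 0.09 log2 units for LAMA4, LAMB1 and LAMC1. For alpha4 with beta2 and gamma1 the values were 0.44, 0.37 and 0.09. The trimers of alpha5 share those beta and gamma chains, and so differ from them in these data by LAMA5 alone, at -0.73. Transcript levels were measured, and neither the proteins nor the trimers.

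By the rule of nearest profile, the 3 genes whose values on the 4 arrays, each centred on its own mean, lay closest to those of LAMA5 among 18187 genes outside the lists were SREBF1, C1QL1 and CLU. Their distances were 0.15, 0.15 and 0.17 log2 units, and their differences were -0.65, -0.63 and -0.62. These hold for the probe set of highest mean. The mean over all probe sets of each gene differed less, by -0.36, -0.22 and -0.42. SREBF1 encodes a transcription factor of fatty acid synthesis, C1QL1 a secreted protein of the C1q family, and CLU the secreted chaperone clusterin. With 4 arrays in 2 groups, such closeness chiefly means a difference of like size.

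Laminins act through receptors and within a larger matrix, and 6 lists of partner genes, drawn up from general knowledge, were set beside the chains. Each gene was represented by its probe set of highest mean. Of 80 listed genes 70 were measured, and 0 passed an adjusted p of 0.05 (limma, smallest adjusted p 0.124), where 0.164% of all genes did in that fit. An unadjusted p under 0.05 (limma) was met by 8 with a higher level and 10 with a lower one, where 11.8% and 8.33% of all genes were.

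Among the laminin receptors, the beta1 integrin was higher in miR-20a cells and several of its partners were lower. Among 12 measured receptor genes, an unadjusted p under 0.05 (limma) was met by 2 that were higher and 4 that were lower. Of all genes, 11.8% and 8.33% were. The median difference of the receptor genes was -0.07 log2 units, against -0.01 over all genes. ITGB1, the beta1 subunit shared by most laminin-binding integrins, was at 13.15 and 13.03 in miR-20a cells, against 12.54 and 12.63 in miR-NT cells, a difference of 0.50 ± 0.10 (SE). Of its 7 probe sets 6 had this sign, and their mean differed by 0.26. SDC2, the proteoglycan syndecan-2, had a difference of 0.38 ± 0.09 (SE), with all 3 of its probe sets higher, by 0.29 to 0.69. After quantile normalization the differences were 0.39 for ITGB1 and 0.27 for SDC2.

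CD151, a tetraspanin that partners laminin-binding integrins, was at 11.32 and 11.34 in miR-20a cells, against 11.77 and 11.77 in miR-NT cells. The CD151 difference was -0.44 ± 0.09 (SE), or -0.61 after quantile normalization. The laminin-specific subunit gene ITGA7 was at 10.37 and 10.36 in miR-20a cells, against 10.86 and 10.71 in miR-NT cells, a difference of -0.42 ± 0.10 (SE). By its other probe set, 209663_s_at, the ITGA7 difference was -0.68 ± 0.10 (SE). ITGA3 and ITGB4, named after their values were seen because they complete the lower 4, had differences of -0.30 ± 0.09 and -0.27 ± 0.09 (SE). ITGA3 encodes the alpha3 subunit, a receptor for alpha5 laminins, and ITGB4 the beta4 subunit of hemidesmosomes. In these probe sets of the 4 genes the groups did not overlap, but the other 4 probe sets of ITGB4 overlapped, with differences between -0.09 and 0.20.

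Among 20 basement membrane partners, 2 that were higher and 3 that were lower met that same unadjusted threshold (limma), where 11.8% and 8.33% of all genes did. The median difference of these partners was 0.00 log2 units. COL4A2, a chain of the type IV collagen network, was at 8.85 and 8.87 in miR-20a cells, against 8.41 and 8.28 in miR-NT cells, a difference of 0.52 ± 0.09 (SE), and its other probe set differed by 0.35. COL4A1, its partner chain, had differences of 0.16 and 0.04 by its 2 probe sets, a value looked up after that of COL4A2 was seen. SPARC, a collagen-binding matricellular protein, had a difference of 0.39 ± 0.09 (SE), or 0.25 after quantile normalization. AGRN, the proteoglycan agrin that binds laminin coiled coils, had -0.28 ± 0.10 (SE), with all 4 probe sets lower. COL15A1, a basement membrane collagen, had -0.27 ± 0.10 (SE), which was -0.18 without miR-20a replicate 2. The COL15A1 levels, between 4.38 and 4.74, cannot be told from background. EGFLAM (pikachurin), a dystroglycan ligand named after its value was seen, had -0.22 ± 0.09 (SE). NID1 and NID2, the nidogens that link laminin gamma1 to type IV collagen, had differences of 0.04 and -0.02, and HSPG2, perlecan, 0.13, none of them at an unadjusted p under 0.05 (limma).

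**Figure D3:**
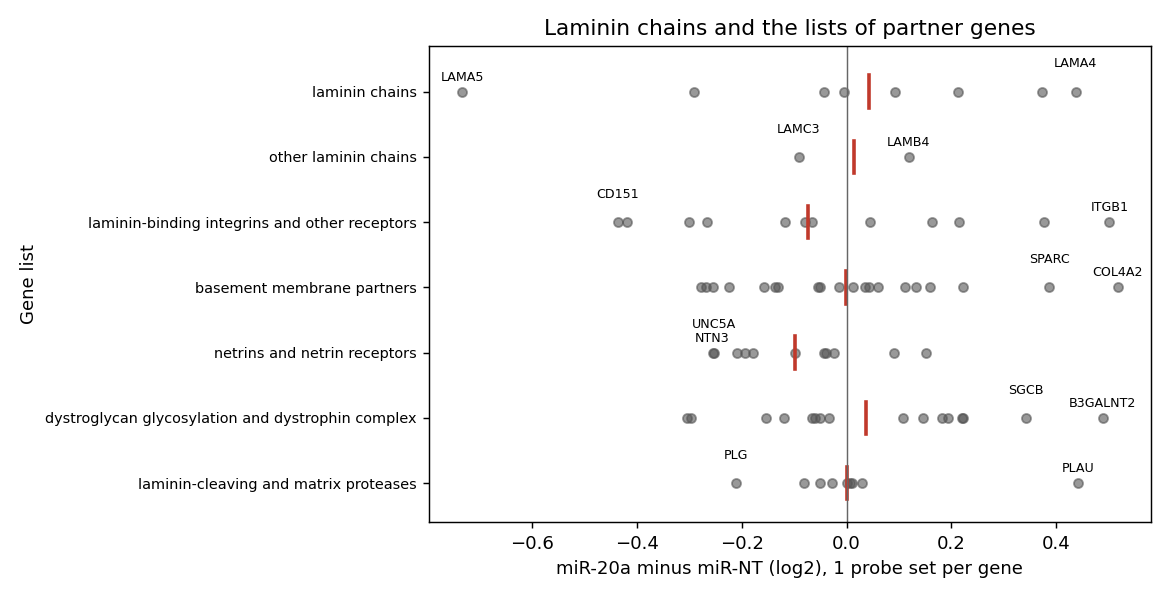
Difference between miR-20a and miR-NT cells (log2, 1 probe set per gene) for the genes of each list, with a point per gene, a red bar at the list's median and names at the largest differences of each list. By the probe sets drawn, LAMA5 at -0.73 lies further from 0 than any gene of the 6 partner lists, which run between -0.44 for CD151 and 0.52 for COL4A2. By probe sets not drawn, ITGA7 reached -0.68 and SDC2 0.69.

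The other partner lists concern the link to the cytoskeleton, proteolysis and the netrins. The genes of dystroglycan glycosylation and the dystrophin complex, which link laminin to the cytoskeleton, had a median of 0.04 log2 units. Of 16 measured, 3 that were higher and 2 that were lower met the unadjusted threshold (limma), where 11.8% and 8.33% of all genes did. B3GALNT2, an enzyme that builds the laminin-binding sugar of dystroglycan, had a difference of 0.49 ± 0.09 (SE) by the probe set used, but 2 of its 4 probe sets had the other sign, and their mean differed by 0.0814. SGCB, a sarcoglycan, had 0.34 ± 0.09 (SE), while its 4 probe sets ran between 0.0231 and 0.38 with a mean of 0.19. DTNA, dystrobrevin alpha, had -0.30 ± 0.09 (SE), while 1 of its 8 probe sets had the other sign and their mean differed by -0.13. LARGE2, which extends the dystroglycan sugar, had -0.30 ± 0.10 (SE).

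The 9 measured proteases that act on laminins and the matrix around them had a median of 0.00. At that threshold (limma), where 11.8% of all genes were higher and 8.33% lower, 0 proteases were lower and 1 was higher. It was PLAU, urokinase, at 11.25 and 11.17 in miR-20a cells, against 10.81 and 10.73 in miR-NT cells, a difference of 0.44 ± 0.09 (SE). By its other probe set the PLAU difference was 0.0526, the mean of both was 0.25, and after quantile normalization the difference was 0.27. Of 11 measured netrins and netrin receptors, relatives of the laminin short arm and their receptors, 0 were higher and 1 lower (limma), against those same shares. Their median was -0.10, against -0.01 over all genes. The lower gene was NTN3, at -0.26 ± 0.10 (SE), with levels between 5.49 and 5.87 that cannot be told from background. The chains LAMB4 and LAMC3, outside the set followed here, had differences of 0.12 ± 0.15 and -0.09 ± 0.13 (SE) with overlapping groups.

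Markers of glial cells and of other cell types had more lower than higher means in miR-20a cells. The median difference over all genes was also below 0, at -0.01 log2 units. Against it, the medians were -0.16 for glial, -0.10 for endothelial and -0.07 for Schwann cell and muscle markers. They were -0.04 for epithelial and -0.01 for blood cell markers, the latter no lower than that of all genes. Of all genes, 8.33% were lower and 11.8% higher by the unadjusted threshold (limma). For 12 glial and neural stem cell markers, the unadjusted threshold (limma) was met by 0 that were higher and 2 that were lower, and their mean level was 7.91 and 7.90 in miR-20a cells, against 8.06 and 8.01 in miR-NT cells. The mean level of 8 endothelial markers, cells rich in LAMA4 and LAMA5, was 6.75 and 6.75 in miR-20a cells, against 6.88 and 6.87 in miR-NT cells, with 1 of them lower at that threshold (limma). For 8 epithelial markers it was 6.34 and 6.34 in miR-20a cells, against 6.38 and 6.41 in miR-NT cells. For 6 Schwann cell and muscle markers, cells rich in LAMA2, it was 7.82 and 7.84 in miR-20a cells, against 7.88 and 7.92 in miR-NT cells. For 5 blood cell markers it was 7.06 and 7.32 in miR-20a cells, against 7.26 and 7.24 in miR-NT cells, and 1 was lower at that threshold (limma). No marker was at 0, because the scale has no zero level, and the part of these shifts in the laminin differences was not tested.

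The chains with the larger differences were followed through every setting. LAMA5 was lower in miR-20a cells in all 13 alternatives, by -0.81 to -0.65 log2 units. Only quantile normalization and median centring could have changed that sign, and they gave -0.74 and -0.70. The other fits kept its deposited values or left out 1 array of groups that did not overlap. In fits with all 4 arrays its adjusted p lay between 0.0222 and 0.358 (limma). LAMA5 passed the threshold in 4 of the 13 alternatives. These were low probe sets left out (adjusted p = 0.0313, limma), a robust fit with a variance trend (0.0222), 1 probe set per gene (0.0449) and the mean of probe sets per gene (0.0286). The LAMA5 values were the same in these 4, since it has 1 probe set. LAMA4 passed by both 202202_s_at (adjusted p = 0.0398, limma) and 210089_s_at (0.0372) with the trend and robust fit, and in no other. LAMB1 by 201505_at and LAMB2 passed in none, with smallest adjusted p-values of 0.0974 and 0.0908 (limma). After quantile normalization LAMA4 differed by 0.35 by 202202_s_at and 0.57 by 210089_s_at, LAMB1 by 0.39 by 201505_at and LAMB2 by 0.30. Without miR-NT replicate 1 the adjusted p of LAMA5 was 0.638 and without miR-NT replicate 2 it was 0.332 (limma), at differences of -0.81 and -0.65.

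**Figure D4:**
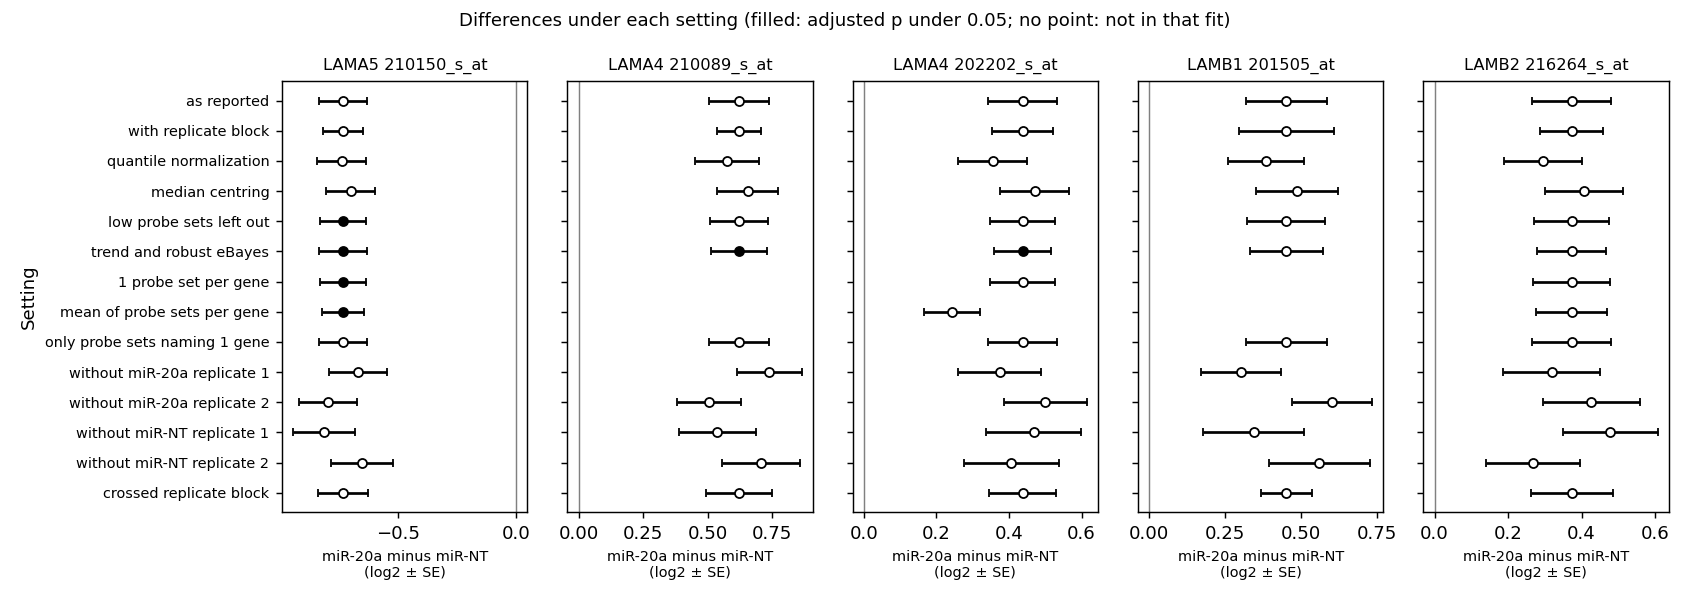
Difference between miR-20a and miR-NT cells (log2, bars for the SE of each fit) for 5 laminin probe sets under the reported fit and each alternative, filled where the adjusted p was under 0.05 (limma) and blank where the probe set was not in that fit; for LAMA4 202202_s_at the mean of probe sets per gene is that of all LAMA4 probe sets, 0.24. The side of 0 is the same in every fit drawn, with LAMA5 filled in 4 alternatives and the LAMA4 probe sets in 1. Apart from quantile normalization, median centring and the LAMA4 mean, no fit could have changed that side.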

How the data were processed

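Total RNA of 4 U87 samples was read on 1 single-colour array each. The authors deposited log2 probe-set levels, with the log base taken from the values (highest 15.07). Per the submitters' processing notes affy, an R package, was used. How background was corrected and how values were normalized and summarized is not given in the sources used here. Of 41930 probe sets, 10 array controls were set aside. In GEO's platform annotation 37465 of the rest named 1 gene, 1727 several and 2728 none, and 0 symbols changed when checked by Entrez identifier.

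From these values, miR-20a was compared with miR-NT by limma 3.58.1 in R 4.3.3 (lmFit, eBayes, intercept and group, prior of 4.60 degrees of freedom and SD of 0.103), two-sided, with Benjamini-Hochberg adjustment over all 41920 probe sets and a threshold of 0.05. No low values were removed. The fit was tested on 5 simulated data sets, each with 200 of 41920 probe sets changed. At this threshold it recovered 0.8% of changes of 0.5 log2 units and 67.8% of changes of 1. A count of 0 past the threshold therefore does not show that levels were unchanged. The p-values reflect the spread among these 4 samples alone, possibly technical, and precision is limited by how few arrays there are. Members and lists were chosen with earlier results of these data known. The genes named were all chains, up to 4 genes of smallest p in each list, and the 3 nearest profiles to LAMA5. Outside that rule, QKI, VIM, CD44, GFAP and ACTB serve as checks, and ITGA3, ITGB4, COL4A1, EGFLAM, NID1, NID2, HSPG2 and LAMA5-AS1 were named after their values were seen. Alternatives were median centring, quantile normalization, the replicate number as a block, leaving out probe sets below the 40th percentile of mean level, joining probe sets by gene, a fit with trend and robust settings, and leaving out each array. Replicate numbers were not taken to pair arrays: deviations of same-numbered arrays correlated at -0.12. The array files give no genome build. Promoter windows and the microRNA came from RefSeq tables (GRCh38.p14), with 8 of 9 chains matched.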

Additional observations from a re-analysis of the deposited data

Results flagged for a closer look

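The values that drew attention, both given above by array, come from probe sets that are no member of the laminin chains. The probe set annotated to both LAMA5 and LAMA5-AS1 averaged 8.001 in miR-20a cells, more than the 7.79 (log2) of miR-NT cells. For the ACTB control, the 3′ probe set exceeded the 5′ one by 0.486 on average in miR-20a cells, more than the 0.272 (log2) of miR-NT cells, and for GAPDH by 0.275 in miR-20a cells and 0.222 in miR-NT cells. Groups of 2 arrays are too small for a search for single arrays that stand apart.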

How the results depend on the processing

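The count of laminin probe sets past the threshold, 0 of 18, became 1 with low probe sets left out (of the 13 that remained), 3 with a trend and robust fit, and 1 each, of 8 genes, with 1 probe set per gene and with the mean of probe sets per gene. The count of partner genes, 0 of 70, became 1, 7 and 1 with low probe sets left out, a trend and robust fit and the mean of probe sets per gene. In the whole table the count of 57 of 41920 probe sets (50 higher, 7 lower) became 334 of 25152 probe sets (269 and 65), 957 of 41920 (783 and 174) and 153 of 18304 genes (125 and 28) under those same settings. Quantile normalization gave 53 higher and 13 lower. With the replicate block 0 passed (limma, 5754 at an unadjusted p under 0.05), and 0 laminin or partner genes did. Pairing each replicate with the other number, chosen after seeing the data, also gave 0 (limma, 7343 at an unadjusted p under 0.05). Leaving out single arrays gave 0 to 66 over all probe sets, 0 without miR-NT replicate 1 or 2 (limma, 3231 and 5097 at an unadjusted p under 0.05) and 16 without miR-20a replicate 1, and 0 laminin or partner genes throughout. The median laminin difference of 0.04 ranged from 0.0430 to 0.16 without single arrays, highest without miR-NT replicate 1.

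Signs turned for differences near 0. After quantile normalization LAMA1 by 222346_at was 0.0257, LAMA2 by 216839_at 0.0280, LAMA4 by 210989_at 0.0375 and by 216081_at 0.0160, and LAMC1 -0.0412 by 200770_s_at and -0.0475 by 200771_at. After median centring LAMA1 by 222346_at was 0.0280, LAMA2 by 216839_at 0.0115, LAMA4 by 210989_at 0.0265 and by 216081_at 0.0107. The mean of probe sets per gene gave LAMA1 0.11. Leaving out single arrays gave -0.24 to 0.22 for LAMA1 by 222346_at, -0.29 to 0.0229 for LAMA2 by 205116_at, -0.18 to 0.13 by 216839_at, -0.0723 to 0.0582 for LAMA4 by 210989_at, -0.12 to 0.0755 by 216081_at, -0.0940 to 0.0071 for LAMB3, -0.10 to 0.34 for LAMB4 and -0.26 to 0.0785 for LAMC3. The cause of these shifts was not tested. Of 492 values under the alternatives, over the laminin chains, the named partner genes and the 3 nearest profiles to LAMA5, 446 kept their sign and side of the threshold, 23 newly passed it and 23 changed sign. Many of the 446 were settled in advance. The replicate blocks, the trend and robust fit and fits to a subset of probe sets left each difference unchanged. No sign could turn there. Leaving out an array could not turn a sign where groups did not overlap. None of these probe sets passed in the reported fit, so no pass could be lost. The 446 is therefore no measure of robustness.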
